A study of Mus musculus with 4 samples.

Results

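The genes described here are 36 interferon response genes, read in mammary tumors that formed with or without St6gal1, the enzyme that adds alpha2-6-linked sialic acid to N-glycans. They were taken as every probe set whose annotated gene symbol was exactly that of a listed gene. This gave 53 probe sets for 34 genes, out of 18193 genes named on the array, which holds 45037 probe sets beside its controls. Isg15 and Ifi44 had no probe set by this rule and were not analysed here. Each gene was read from its brightest probe set, and 33 of the 34 genes were bright enough to be tested, against 11512 genes in all. Of the 36 genes, 26 are typical targets of type I interferon and 10 are typical targets of interferon gamma. Many members respond to both, so the split is one of emphasis.

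All tumors arose in female C57BL/6 mice with the PyV-mT transgene, which encodes polyoma virus middle T, an oncogene that drives mammary tumors. The mice were 110 days old, and their tumors had been present for 14 days. The null pools came from St6gal1-/- mice and the wild-type pools from littermates that kept St6gal1, so both groups carry the oncogene. RNA of 3 tumors from 3 animals was pooled for each Affymetrix Mouse Genome 430 2.0 array. There were 4 arrays, 2 pools per genotype, and 1 null and 1 wild-type pool made up each of 2 sets. The sources used here give neither the promoter of the transgene nor the deleted part of St6gal1.

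Type I interferons (alpha and beta) and interferon gamma are secreted signals that bind separate cell surface receptors. The type I receptor acts through a complex that holds Stat2 and Irf9, which binds a DNA element called ISRE and switches on antiviral genes. Signalling from the gamma receptor ends at an element called GAS, and the Irf1 made in response acts on ISRE elements in turn. In a tumor these genes can be expressed by the carcinoma cells, the stroma and the leukocytes alike.

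The arrays had median intensities from 588 to 619. The brighter St6gal1 probe set read 2337 and 3642 in the null pools and 2330 and 2796 in the wild-type pools, set 1 first. It showed no loss on the arrays labelled null. Whether this probe set lies within the deleted part is not known, so it does not check the labels. Every direction therefore rests on the labels. The luminal epithelial markers Epcam, Krt8 and Krt18 read at or above 21835, 101213 and 114320 on every array. Y-linked probe sets, which mark unspecific signal in female animals, read at most 565. The 3'/5' signal ratio of Gapdh, a sign of RNA or labelling quality, was 0.873 and 0.869 in set 1 and 2.13 and 1.57 in set 2, null first. That of beta-actin was 1.53 and 1.63 in set 1 and 2.12 and 1.96 in set 2, a smaller gap between the sets. Where the values of a genotype are given as a pair below, set 1 comes first. Where the sets themselves are compared, set 2 comes first. In bulk RNA, fewer cells of a type and less RNA per cell cannot be told apart.

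The promoters of 5 members are shown because each holds an ISRE match and its null arrays did not overlap the wild-type arrays. Null was above wild type for Oas1a, Ifih1, Gbp2 and Igtp, and below it for Ifit3. Ifit2, whose null arrays also lay below the wild-type arrays, held a GAS match alone and is not shown. The sequences are those of RefSeq for build GRCm38.p6, from 250 bases before to 50 after the gene's start, 5′ to 3′ along the gene's strand. Capitals mark matches on either strand to the ISRE pattern searched, which is GAAA, then any 2 bases, then GAAA, or to the GAS pattern searched, which is TTCNNNGAA. Oas1a lies at chr5:120907476-120907775 on the minus strand, Ifih1 at chr2:62646206-62646505 on the minus strand and Ifit3 at chr19:34583279-34583578 on the plus strand. Gbp2 lies at chr3:142620413-142620712 on the plus strand and Igtp at chr11:58199306-58199605 on the plus strand.
Oas1a: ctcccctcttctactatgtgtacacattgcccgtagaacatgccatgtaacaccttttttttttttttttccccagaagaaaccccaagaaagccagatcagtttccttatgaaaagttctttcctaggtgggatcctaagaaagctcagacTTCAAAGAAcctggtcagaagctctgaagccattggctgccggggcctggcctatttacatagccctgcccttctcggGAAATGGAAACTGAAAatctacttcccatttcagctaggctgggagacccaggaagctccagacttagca
Ifih1: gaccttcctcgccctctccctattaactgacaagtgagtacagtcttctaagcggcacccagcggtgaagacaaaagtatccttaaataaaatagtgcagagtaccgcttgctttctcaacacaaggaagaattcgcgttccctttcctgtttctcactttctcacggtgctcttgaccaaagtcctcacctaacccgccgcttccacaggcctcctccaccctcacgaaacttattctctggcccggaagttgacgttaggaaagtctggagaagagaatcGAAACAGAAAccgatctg
Ifit3: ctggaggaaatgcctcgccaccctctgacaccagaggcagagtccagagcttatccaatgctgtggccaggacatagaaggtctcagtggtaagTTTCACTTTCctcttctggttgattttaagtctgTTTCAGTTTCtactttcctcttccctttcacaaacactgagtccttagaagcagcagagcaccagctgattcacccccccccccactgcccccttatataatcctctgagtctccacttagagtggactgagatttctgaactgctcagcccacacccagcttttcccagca
Gbp2: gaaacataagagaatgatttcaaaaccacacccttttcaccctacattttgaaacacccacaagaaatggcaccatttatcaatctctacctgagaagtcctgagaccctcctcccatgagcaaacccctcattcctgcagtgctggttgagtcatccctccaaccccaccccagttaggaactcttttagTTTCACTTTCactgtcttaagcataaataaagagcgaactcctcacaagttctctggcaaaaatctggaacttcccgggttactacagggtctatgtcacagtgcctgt
Igtp: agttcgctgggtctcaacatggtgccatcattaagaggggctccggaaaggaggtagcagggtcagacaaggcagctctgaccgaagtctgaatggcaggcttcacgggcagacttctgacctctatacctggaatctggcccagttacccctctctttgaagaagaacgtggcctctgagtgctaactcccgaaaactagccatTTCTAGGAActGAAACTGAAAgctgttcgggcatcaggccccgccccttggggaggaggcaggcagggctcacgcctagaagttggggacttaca

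A promoter sequence was at hand for 28 of the 36 genes. The ISRE pattern was found in 14 of these 28 genes (50%), against 3.99% of all 27025 genes with a promoter and 3.44% of all promoters. It was present in 10 of 19 typical type I targets and in 4 of 9 typical gamma targets. The GAS pattern was found in 7 of the 28 (25%), against 9.55% of all genes and 8.30% of all promoters. It was present in 4 of the 19 and in 3 of the 9. Of the genes printed, Oas1a and Igtp held both patterns and the other three held ISRE alone. In Bst2 a GAS match overlapped an ISRE match. The genes without an entry were Usp18, Mx2, Iigp1, Mx1, Zbp1, Dhx58, Parp14 and Oas2. A match is only a match of letters within this window.

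The main question was whether these genes differed between null and wild-type tumors. One member rose: Usp18, the protease that removes Isg15 from proteins and damps signalling from the type I receptor, by 1.30-fold. No other tested member passed. The log2 ratio of null over wild type ran from -0.26 to 0.37 over the 33 tested members, and all 33 were under 0.5 in size, as were 89% of all genes tested. The members' median was 0.10, or 0.13 in set 1 and 0.09 in set 2, against -0.01 over all genes tested.

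The test was limma with genotype and set as terms on log2(intensity + 44), a scale that understates changes of dim genes. Its p-values were adjusted by Benjamini-Hochberg over the 22519 probe sets above the filter, with a threshold of 0.05. It called 1 of 33 members (3.03%) against 8.70% of all genes tested, of which 5.17% were higher and 3.54% lower in the null. At an unadjusted p under 0.05 there were 8 members (24.2%), against 22.9% of all genes. The adjusted count lay below the background and the unadjusted count near it. Without set as a term limma called 0 probe sets on the whole array (1261 at an unadjusted p under 0.05), and without the intensity trend it also called 0 (3512 at an unadjusted p under 0.05).

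**Figure D1:**
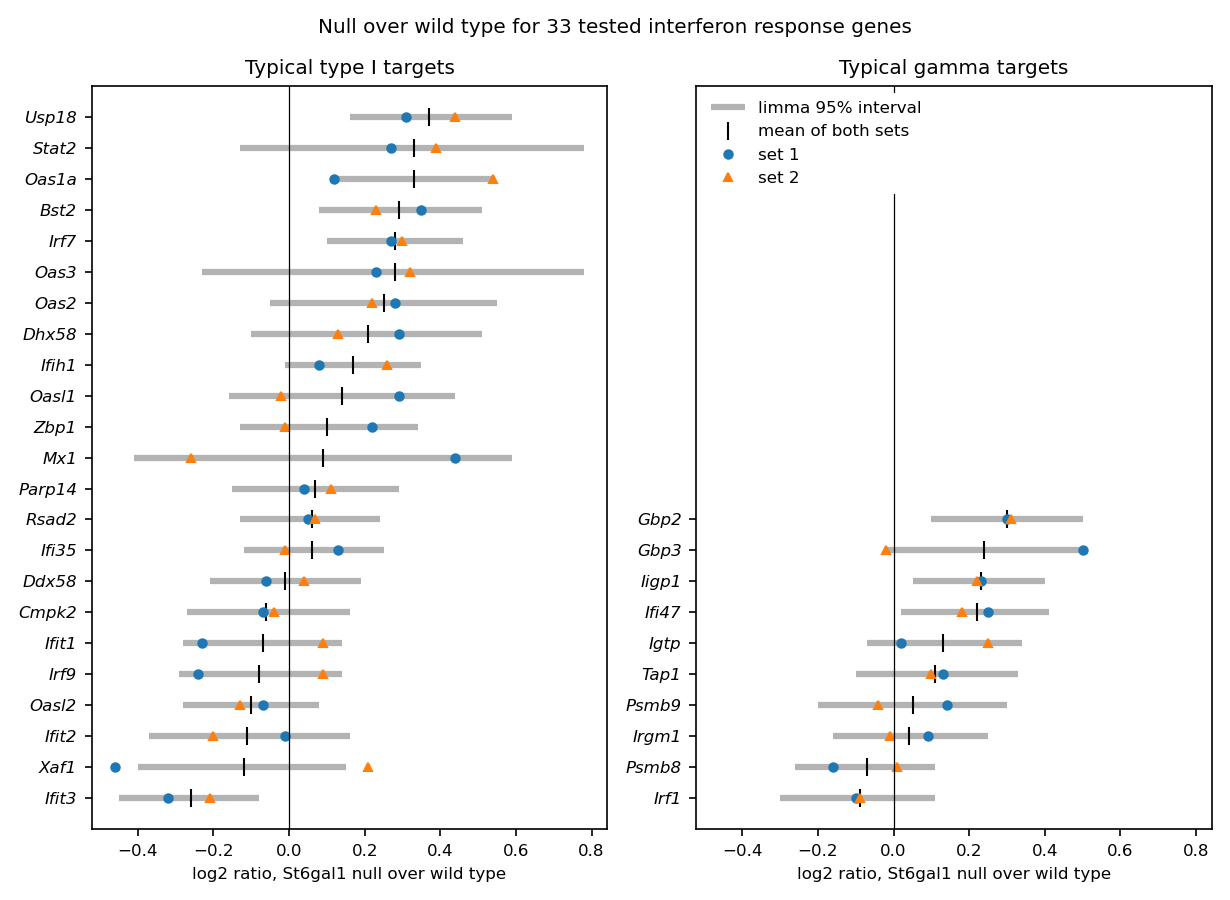
Log2 ratio of null over wild type (horizontal axis) for the 23 tested typical type I targets and the 10 tested typical gamma targets, with each set's ratio as a point, their mean as a tick and the limma 95% interval as a bar. Usp18 lies at the top of the first panel and Ifit3 at its foot, and all means lie between -0.26 and 0.37.

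The signs within sets were counted as well. Null exceeded wild type in both sets for 16 of the 33 members (48.5%) and was below it in both for 5, against 31.6% and 33.5% of all genes tested. Both null arrays read above both wild-type arrays for 8 members (24.2%, against 17.6% of all genes): Oas1a, Irf7, Usp18, Ifih1, Dhx58, Gbp2, Igtp and Iigp1. The reverse held for Ifit2 and Ifit3, against 17.0% of all genes. These are counts beside a background, with no test of the list.

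Typical type I and typical gamma targets had close medians. The 23 tested type I targets had a median log2 ratio of 0.09, and 11 were higher and 4 lower in both sets. The 10 gamma targets had a median of 0.12, and 5 were higher and 1 lower in both sets. Within set 1 the medians were 0.12 and 0.14, and within set 2 they were 0.09 and 0.05, type I first. The order of the lists therefore turned between the sets, and their difference was not tested. Without the wild-type pool of set 1 the type I median was -0.02, and without the null pool of set 2 it was 0.01, while the median over all genes tested was -0.04 in both fits. Limma called 1 of 23 genes in the type I list (4.35%) and 0 of 10 in the gamma list, against 8.70% of all genes. At an unadjusted p under 0.05 there were 5 (21.7%) and 3 (30%), against 22.9%.

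General leukocyte markers also read higher in the null, while lists of single leukocyte types differed in direction, as given below. All 6 general leukocyte markers (Ptprc, Laptm5, Coro1a, Cd53, Lcp1 and Vav1) read higher on both null arrays than on both wild-type arrays on their brightest probe sets. The same held for 17.6% of all genes tested. Dimmer probe sets disagreed for Lcp1, with a log2 ratio of -0.20, and for Laptm5, with 0.36, -0.15 and 0.11. On its brightest probe set Laptm5 rose 1.32-fold (limma adjusted p = 0.0074) and Coro1a 1.33-fold (adjusted p = 0.0317). The list's median log2 ratio was 0.30 and its summed signal was 72718 and 73546 in the null pools against 56458 and 60144 in the wild-type pools. The summed signal of the 34 interferon members was 365276 and 393874 against 347116 and 363035. The part of the leukocyte signal in the members' ratios was not tested.

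The macrophage and dendritic list had no shared direction. Its 11 matched markers summed to 94129 and 111306 in the null pools and 98761 and 111511 in the wild-type pools. Of the 9 tested, 6 were higher and 3 lower in both sets (median 0.15), against 31.6% and 33.5% of all genes. Mrc1 and Cd163 rose and Cd14 fell (limma adjusted p = 2.02e-05, 0.0114 and 0.00412). The sum leans on Cd14, which read 30452 and 38913 in the null against 43002 and 50698 in the wild-type pools. Itgam and Xcr1 lay within the unspecific level on every array. Over all genes tested, 5.17% rose and 3.54% fell. The fibroblast list (8 of 8 rose, median 1.33) and the adipocyte list (4 of 4 tested rose, median 1.45) both changed more. Their medians lay above the largest ratio of any tested member, 0.37. In the basal list 4 of 6 fell (median -0.65). In the B and plasma cell list 2 of 2 tested genes fell, Jchain and Sdc1 (median -0.57). In the neutrophil list 1 of 2 tested genes fell, S100a8, and the median was -1.03. The neutrophil list summed to 10775 and 9833 in the null against 36817 and 33650 in the wild-type pools. Of 13 matched T and NK cell markers, only 4 were bright enough to be tested and 0 passed (limma; 1 at an unadjusted p under 0.05). All 4 had log2 ratios above 0 (median 0.58). Both null arrays read above both wild-type arrays for 3 of them, against 17.6% of all genes. Cd3d, Cd4, Cd8b1, Cd2 and Ncr1 lay within the unspecific level on every array. In the endothelial list 1 of 5 tested genes rose, Vwf, and 4 were higher in both sets (median 0.67). In the plasmacytoid dendritic list 2 of 3 tested genes rose, Tcf4 and Ly6d, which other cells express as well. Its defining marker Siglech read 53.4 and 430 in the null and 310 and 648 in the wild-type pools, so it was above the unspecific level on 1 array. The part of these cells in the members' ratios was not tested.

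**Figure D2:**
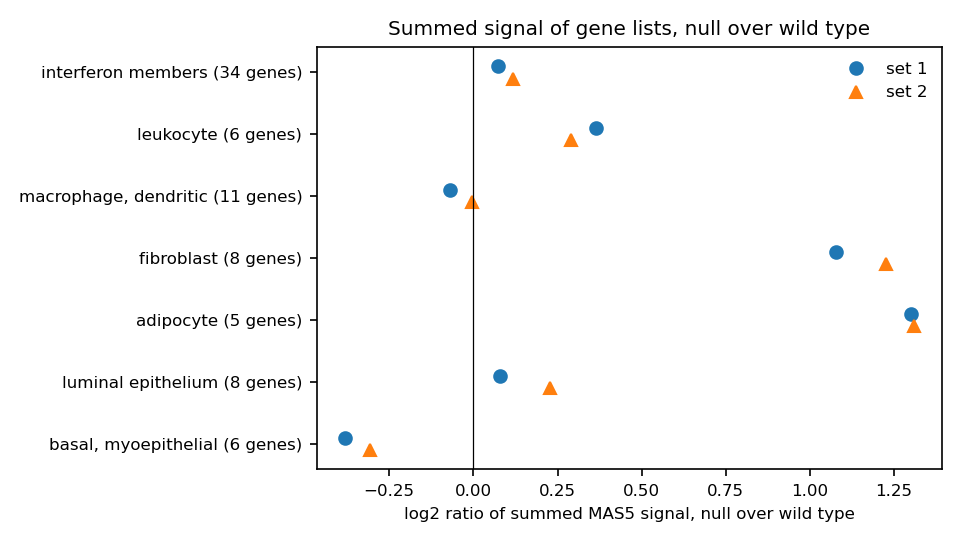
Log2 ratio of summed MAS5 signal, null over wild type (horizontal axis), for the interferon members and 6 cell marker lists, each set as its own point. Fibroblast and adipocyte lists lie far to the right, and general leukocyte markers lie to the right of the interferon members in both sets.

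The Isg15 system was represented by Usp18 alone. It read 7640 and 9792 in the null pools and 6175 and 7200 in the wild-type pools. Both null arrays were above both wild-type arrays. The null exceeded the wild type by a log2 ratio of 0.37 ± 0.10 (SE, n = 2 and 2 pools; limma adjusted p = 0.0339). The call was lost without the filter on low values (adjusted p = 0.0512), without set as a block (adjusted p = 1) and without the intensity trend (adjusted p = 0.304), at the same log2 ratio. It was also lost with any 1 array left out. The ratio was then 0.55 without the null pool and 0.26 without the wild-type pool of set 1, and 0.20 and 0.48 without those of set 2 (limma adjusted p = 0.689, 1, 1 and 0.999).

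The cytosolic sensors start the interferon response. Ifih1 detects long double-stranded RNA and read 20443 and 23907 in the null against 19314 and 19945 in the wild-type pools. Its log2 ratio was 0.17 ± 0.09 (adjusted p = 0.284, limma). Ddx58, the gene of the sensor RIG-I, read 8452 and 10735 against 8819 and 10460, and its log2 ratio of -0.01 had a 95% interval from -0.21 to 0.19. Dhx58, a regulator of both sensors, had a ratio of 0.21 with an interval from -0.10 to 0.51. Zbp1, which detects Z-form nucleic acid, had a log2 ratio of 0.10, and its other probe set had -0.13.

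Among the transcription factors, Irf7 came nearest to the threshold. Irf7 amplifies type I interferon production. It read 18118 and 19764 in the null pools and 15051 and 16084 in the wild-type pools, with no overlap. The log2 ratio was 0.28 ± 0.08 (limma adjusted p = 0.0573), and it was 0.27 in set 1 and 0.30 in set 2. It passed when only probe sets at or above the 75th percentile were tested (adjusted p = 0.0305) and with a pseudocount of 200 (adjusted p = 0.049).

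The other three factors lay farther from the threshold. Irf1, the factor induced by interferon gamma, read 8006 and 8948 in the null against 8590 and 9502 in the wild-type pools. The log2 ratios were -0.10 and -0.09, and the fitted interval from -0.30 to 0.11 includes no difference. Irf9, the DNA-binding partner of Stat2, was at -0.24 in set 1 and 0.09 in set 2. Stat2 was at 0.27 in set 1 and 0.39 in set 2 on its brighter probe set, a ratio of 0.33 ± 0.21, and had -0.17 on the other, so its probe sets disagreed in sign.

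Of the antiviral effectors, 0 of 12 tested genes passed (limma). At an unadjusted p under 0.05 there were 3 (25%), near the 22.9% of all genes. Among the 2'-5' oligoadenylate synthetases, which activate an RNA-degrading enzyme, Oas1a, Oas2 and Oas3 had log2 ratios of 0.33, 0.25 and 0.28. Oas1a read 17584 and 25233 in the null pools and 16187 and 17374 in the wild-type pools. All its null values were above its wild-type values, but set 1 gave 0.12 and set 2 gave 0.54, and the adjusted p was 0.0624 (limma). It passed when only probe sets at or above the 75th percentile were tested (adjusted p = 0.039) and a pseudocount of 200 (adjusted p = 0.0479). The synthetase-like member Oasl2 read 18735 and 21607 in the null against 19681 and 23594 in the wild-type pools, at -0.10, and Oasl1 was at 0.14.

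The Ifit genes encode proteins that bind foreign RNA. Ifit3 read 12800 and 13143 in the null against 15951 and 15167 in the wild-type pools. Both null arrays were below both wild-type arrays, and the log2 ratio was -0.26 ± 0.09 (limma adjusted p = 0.09). Ifit2 read 4152 and 4135 against 4183 and 4772, a ratio of -0.11, with -0.01 in set 1 and -0.20 in set 2. Ifit1 was at -0.23 in set 1 and 0.09 in set 2. None of the Ifit and Oas genes passed, and the difference between the families was not tested.

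Of the further effectors, Rsad2 and Cmpk2 had ratios near 0 and Bst2 a higher one. Rsad2, the gene of viperin, had 0.06 with an interval from -0.13 to 0.24, and its other probe sets had 0.15 and -0.08. Cmpk2, a mitochondrial nucleotide kinase, had -0.06 with an interval from -0.27 to 0.16. Bst2, the gene of tetherin, which holds budding virus at the cell surface, read 11290 and 5439 in the null against 8822 and 4620 in the wild-type pools. Null was higher in both sets and the ratio was 0.29 ± 0.10, with a 95% interval from 0.08 to 0.51 (limma adjusted p = 0.102), while the groups overlapped because set 1 was much higher.

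Mx2 stood apart but lay below the filter. Mx1 and Mx2 encode dynamin-like GTPases, and C57BL/6 mice are known to carry a defective Mx1. Mx2 read 954 and 1621 in the null pools, above the unspecific level of 565, and 110 and 441 in the wild-type pools, below it. Since both wild-type values are not told from unspecific signal, the null pools were at least 2.12-fold higher, an estimate over both sets against that level. Limma called it with no filter and with a pseudocount of 200, but as the wild-type signals set no level, no fitted ratio or p-value is given. Mx1 read 1405 and 1566 in the null against 1023 and 1891 in the wild-type pools, at 0.44 in set 1 and -0.26 in set 2.

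**Figure D3:**
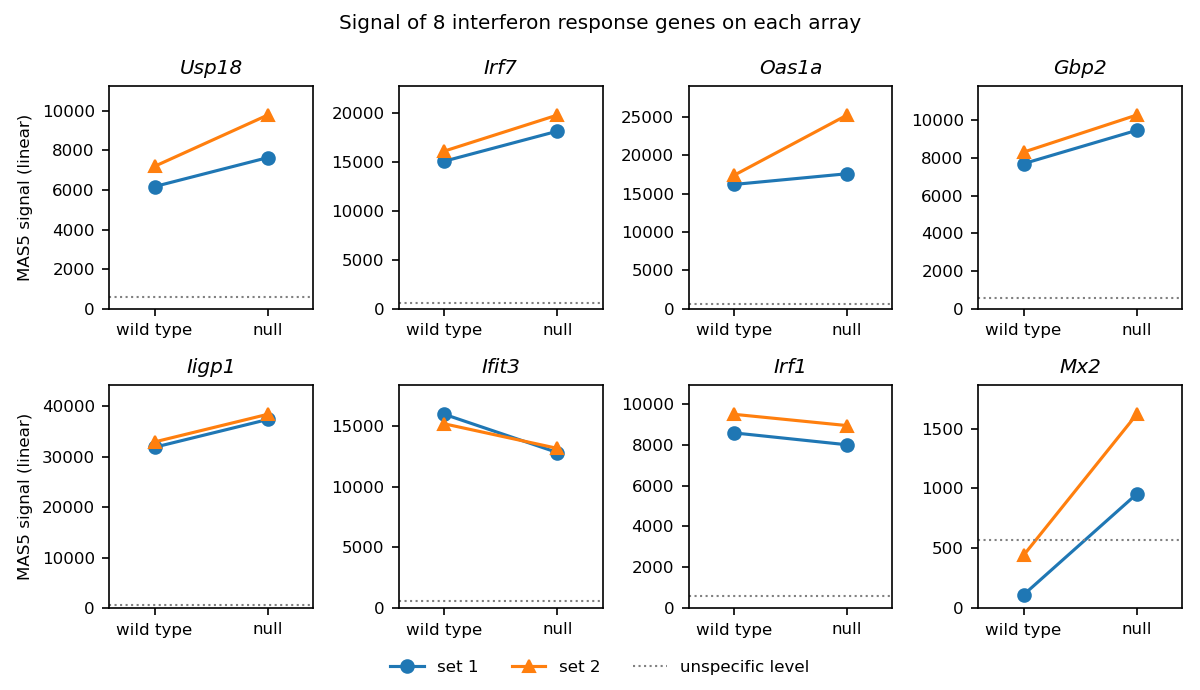
MAS5 signal on a linear axis from 0 for 8 members in wild-type and null pools, with a line joining the pools of each set and a dotted line at the unspecific level of 565. Usp18, Irf7, Oas1a, Gbp2 and Iigp1 slope up in both sets and Ifit3 and Irf1 slope down, while Mx2 is the one gene whose wild-type pools lie below the dotted line.

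Other induced genes had no shared direction. Ifi35, the brightest member, read 48233 and 50802 in the null against 43975 and 51050 in the wild-type pools. Its log2 ratio was 0.06 on that probe set and 0.33 and 0.15 on the others. Xaf1, an antagonist of an apoptosis inhibitor, read 8281 and 11300 in the null against 11410 and 9758 in the wild-type pools, so it was lower in set 1 and higher in set 2. Parp14, an ADP-ribosyltransferase, was at 0.07 with an interval from -0.15 to 0.29.

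The interferon-inducible GTPases, which attack the vacuoles of intracellular pathogens, all had log2 ratios above 0, and 0 of 6 passed (limma). At an unadjusted p under 0.05 there were 3 (50%), against 22.9% of all genes. Their median was 0.22, from 0.04 to 0.30, and 4 of 6 were higher in both sets (66.7%, against 31.6% of all genes). Gbp2 read 9457 and 10266 in the null against 7688 and 8301 in the wild-type pools. Its groups did not overlap, and the ratio was 0.30 ± 0.09 (limma adjusted p = 0.0697, or 0.0491 when only probe sets at or above the 75th percentile were tested). The other Gbp2 probe set had a ratio of 0.00 with an interval from -0.21 to 0.21, so its probe sets disagreed.

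Iigp1, Ifi47, Igtp and Irgm1 belong to the immunity-related GTPases. Iigp1 read 37395 and 38425 in the null against 31884 and 32944 in the wild-type pools, again without overlap. Both of its probe sets gave similar ratios, 0.23 and 0.26, with limma adjusted p of 0.123 and 0.114. Ifi47 read 11330 and 12932 against 9496 and 11412, a ratio of 0.22 ± 0.09. Igtp was at 0.02 in set 1 and 0.25 in set 2. Gbp3 was at 0.50 in set 1 and -0.02 in set 2, and Irgm1 at 0.09 and -0.01, so neither repeated across sets. Probe sets of these families can share sequence between close relatives, so the split between members is uncertain.

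The antigen processing members had ratios close to 0. Psmb8 and Psmb9, the immunoproteasome subunits, and Tap1, which carries peptides into the endoplasmic reticulum, had log2 ratios of -0.07, 0.05 and 0.11. Psmb8 read 19547 and 15502 in the null against 21800 and 15422 in the wild-type pools. Psmb9 read 6336 and 4187 against 5746 and 4310. The intervals were -0.26 to 0.11, -0.20 to 0.30 and -0.10 to 0.33.

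The members were also compared between the sets. For set 2 over set 1, limma called 9 of 33 members (27.3%), 6 higher and 3 lower, close to the 23.0% of all genes tested (14.6% higher and 8.40% lower). The members' median of 0.11 was also near the 0.10 of all genes. The sets also differ in the Gapdh 3'/5' ratio, and less so in that of beta-actin. The sources used here do not say what else set them apart, so RNA quality and set cannot be told apart.

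Bst2 was lower in set 2, at 5439 against 11290 in the null and 4620 against 8822 in the wild-type pools. The log2 ratio of set 2 over set 1 was -0.99 ± 0.10 (limma adjusted p = 1.01e-05). Psmb8 and Psmb9 were lower by log2 ratios of -0.42 and -0.50 (adjusted p = 0.00306 and 0.00595). Oas2 was 1.73-fold higher in set 2, at 4501 against 2623 in the null and 3845 against 2160 in the wild-type pools (limma adjusted p = 0.00105). Ifit1, at 12856 against 8840 and 12117 against 10355, was 1.30-fold higher. Tap1, at 7928 against 6249 and 7405 against 5701, was 1.28-fold higher. Oas1a, Ddx58 and Usp18 were between 1.22-fold and 1.24-fold higher. For Ddx58 this held on its brightest probe set only, as its other tested probe sets had log2 ratios of -0.17 and 0.00. Oas1a had a log2 ratio of set 2 over set 1 of 0.52 between the null pools and 0.10 between the wild-type pools. The arrays of set 2 lay wholly above those of set 1 for 13 members and wholly below for 7, against 33.9% and 17.8% of all genes.

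For some members, Ddx58 among them, probe sets of the same gene disagreed on the change between the sets. Parp14 had log2 ratios of 0.28 and -0.72, Zbp1 -0.19 and 0.26, and Cmpk2 0.18 and -0.16, the brightest probe set first. The brightest Rsad2 probe set had a log2 ratio of set 2 over set 1 of 0.17, while the other probe sets had -0.31 and -0.82, of which the last passed (limma adjusted p = 0.00706). Oas1a, Ddx58 and Usp18 lost the call for set under quantile normalization (limma adjusted p = 0.0543, 0.0605 and 0.0841). Without the intensity trend 0 members were called for set. With genotype dropped from the fit, Bst2 alone was called without either array of set 2, and 0 members were called without either array of set 1.

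**Figure D4:**
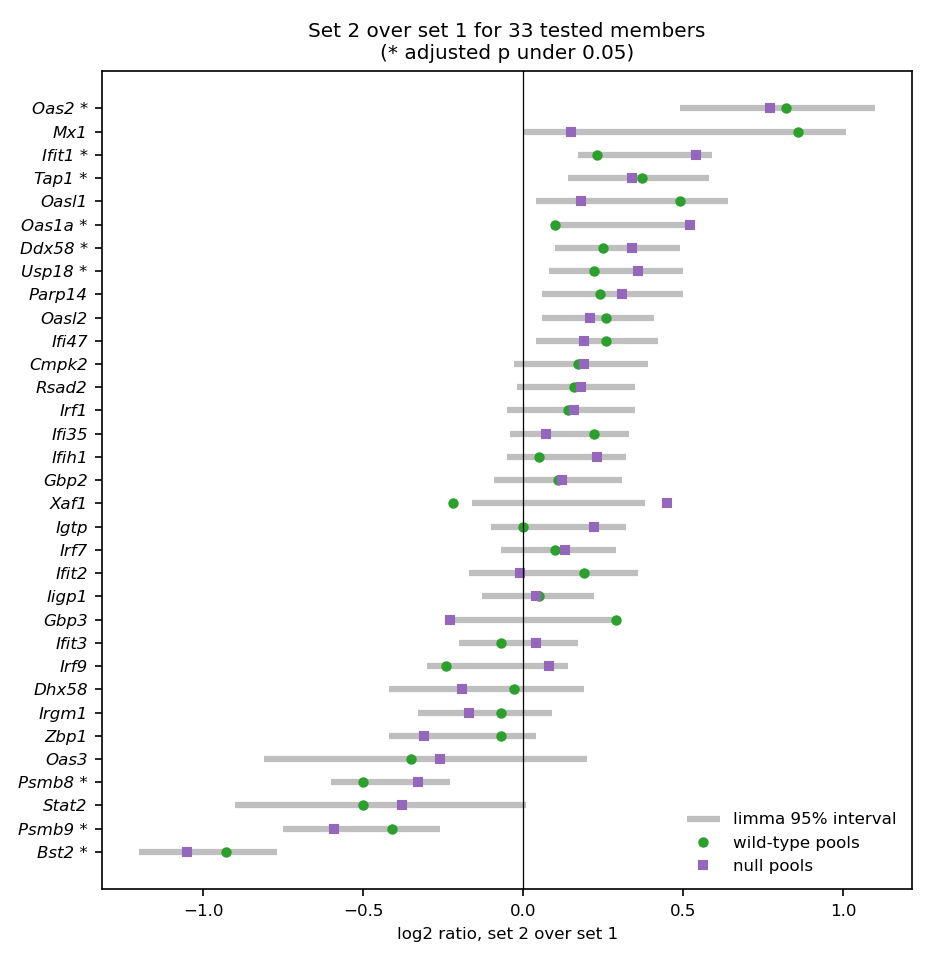
Log2 ratio of set 2 over set 1 (horizontal axis) for the 33 tested members, with the ratio between wild-type pools and between null pools as separate points, the limma 95% interval as a bar, and an asterisk where the adjusted p was under 0.05. Bst2 lies lowest at -0.99 and Oas2 highest at 0.79, and both genotypes gave similar ratios for each.

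Members with an ISRE match had a median ratio of null over wild type of 0.17 (13 tested), and those without one -0.06 (13 tested). Null was higher in both sets for 8 of the 13 with a match and for 3 of the 13 without. For the GAS pattern the medians were 0.06 with a match (7 tested) and 0.06 without (19 tested). This split was made after the ratios were known and carries no test. Igtp and Oas1a, printed with both patterns, were higher in both sets, as was Gbp2 with ISRE alone, whereas Ifit3, with 2 ISRE matches, was lower in both.

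Upstream of the members, ligands gave no signal above the unspecific level. Of 9 interferon ligands listed, 5 had a probe set, and Ifnb1, Ifng, Ifna1, Ifna2 and Ifna4 read within the unspecific level on every array. Of 6 interferon receptor genes tested, 0 passed with limma (0 at an unadjusted p under 0.05, against 22.9% of all genes). Their ratios ran from -0.27 to 0.10 with a median of -0.12. Between the sets, the gamma receptor gene Ifngr1 had a log2 ratio of -0.70 (limma adjusted p = 0.00118).

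In the signalling list, 1 of 13 tested genes changed by genotype (7.69%, against 8.70% of all genes). Stat3 fell by 0.49 on its brightest probe set (limma adjusted p = 0.00926), with 60162 and 15279 in the null against 71056 and 25701 in the wild-type pools, while its second probe set had -0.13. Between the sets the first had -1.72 and the second 0.36, so these probe sets do not report the same difference. Irf8 had a log2 ratio of null over wild type of 0.07 on its brightest probe set. Its second probe set fell by 0.55 (limma adjusted p = 0.0155), so these also disagreed. In the nucleic acid sensing list 1 of 8 changed (12.5%): Tbk1, the kinase that activates Irf3, fell by 0.38 (adjusted p = 0.0384), with 0.01 on its other probe set.

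Targets of interferon outside the members were counted in the same way. Of 29 further type I targets tested, 4 rose (13.8%, against 5.17% of all genes) and 0 fell, with a median of 0.10. Ifi27l2a, a small membrane protein induced by interferon, read 24193 and 19259 in the null against 13038 and 12462 in the wild-type pools and rose 1.69-fold (limma adjusted p = 7.64e-05). Epsti1 rose 1.67-fold, Ifitm3, which blocks virus entry, 1.26-fold and Ifi27 1.23-fold (limma adjusted p = 0.00603, 0.0462 and 0.0455). The last 2 lay close to the threshold. Other probe sets of Epsti1 and Ifi27 had ratios of 0.57 and 0.15.

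Of 18 further gamma targets tested, 3 rose (16.7%, against 5.17% of all genes) and 0 fell, with a median of 0.18. Ido1, which degrades tryptophan, read 6105 and 7282 in the null against 2951 and 4694 in the wild-type pools and rose 1.78-fold (limma adjusted p = 6.27e-04). Irgm2 rose 1.27-fold, close to the threshold (limma adjusted p = 0.0462). H2-Ab1, a class II chain, rose 1.24-fold on its brightest probe set (adjusted p = 0.0335, limma), with 0.01 and 0.16 on the others. The difference between these lists and the members was not tested. The chemokine Cxcl10 had a ratio of -0.02 ± 0.26.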

How the data were processed

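Gene expression in mammary tumor pools was measured on 4 one-colour arrays. Deposited values are linear probe set intensities, which per the submitters' processing notes were made by the authors with MAS5, in an unstated version. Its scaling leaves arrays with equal trimmed means, here 2500 on all 4 after trimming 2% at each end, so the values were used as deposited. Of 45101 probe sets, 64 controls were left out. The probe annotation gave 1 symbol for 34945, several for 932 and none for 9160, and only the first were named.

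Values became log2(intensity + 44), 44 being the 10th percentile. The 22519 probe sets whose mean reached the median were fitted with limma 3.58.1 in R 4.3.3, with genotype and set as terms and an intensity trend, which leaves 1 residual degree of freedom and 13.5 prior ones. Set is a block since the series' own description pairs 1 null pool with 1 wild-type pool per set. Arrays of a set deviated together from their group means (r = 0.612, which with 2 arrays per group must be equal in both sets). Each gene was read from its brightest probe set. The fit was tested on simulated data, where more of its calls were false than the threshold allows.

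All members are accounted for, with full values for those past the threshold, the largest set changes, and at least 1 member of each role. Other pathway genes are given as counts, naming those past the threshold. Genes outside this rule were named after their values were seen. The members and lists were chosen with earlier results of these data known. An exact permutation of 2 against 2 arrays cannot pass the threshold, and precision is limited by the small number of arrays. The alternatives were other normalizations, pseudocounts, filters, no set term, no trend and each array left out.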

Additional observations from a re-analysis of the deposited data

How the results depend on the processing

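The intervals rest on 1 residual degree of freedom and on a spread shared across probe sets. With no replicate block, limma called 0 probe sets and 0 members for genotype (1261 probe sets and 0 members at an unadjusted p under 0.05). Without the intensity trend it called 0 probe sets and 0 members (3512 and 1), and 0 members for set. With 1 array left out and no set term, between 5 and 26 probe sets and 0 members were called by genotype, and between 0 and 1 member by set, the last an alternative chosen after seeing the data. The members called by genotype numbered 4 with a pseudocount of 200 (Usp18, Oas1a, Irf7 and Mx2, whose wild-type signals set no level) and 4 with the 75th percentile as the filter (Usp18, Oas1a, Irf7 and Gbp2). With no filter the count was 1, but the gene was Mx2, so no other member was called. Quantile and cyclic loess normalization and a pseudocount of 1 each gave 1 member, Usp18. Under each of the other alternatives, at most 3 of the members tested in both fits lost the call for set and at most 1 gained it. The median ratio of members ran from 0.05 to 0.14 with 1 array left out, that of type I targets from -0.02 (without the wild-type pool of set 1) to 0.14, and that of gamma targets from 0.11 to 0.19. The type I median was 0.11 after quantile normalization and 0.12 in set 1 alone, and the gamma median was 0.05 in set 2 alone. The causes were not tested. No called ratio of a named member changed sign under any alternative run. Signals within the unspecific level, such as those of Mx2 in wild type and of the interferon ligands, set no level.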

Other observations

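The chemokine gene Cxcl11, a target of interferon gamma, showed values of the same form as Mx2 on its brighter probe set. It read 600 and 792 in the null pools and 62.5 and 361 in the wild-type pools, so both null arrays lay above the unspecific level of 565 and both wild-type arrays below it. Its dimmer probe set read 252 and 330 in the null against 47.4 and 129 in the wild-type pools, all within that level. Cxcl9, a chemokine that draws T cells, had log2 ratios of 0.52 ± 0.28 and 0.95 ± 0.31 on its probe sets, and neither passed (limma adjusted p = 0.322 and 0.0877). These genes were picked after their values were seen.

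B2m, the light chain of class I molecules, is induced by interferon, and its values lay below those of wild type. It read 114256 and 109952 in the null against 130900 and 139254 in the wild-type pools, with a ratio of -0.27 ± 0.10 (limma adjusted p = 0.115), and its second probe set fell by 0.35 (adjusted p = 0.0265).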
